A study of Homo sapiens with 38 samples.

Results

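The promoter-proximal heavy-strand mitochondrial tRNAs are the transfer RNA genes read from the heavy-strand promoter of human mitochondrial DNA between the start of the transcript and the MT-CO1 gene. They were chosen by their place on the mitochondrial chromosome and are MT-TF, MT-TV, MT-TL1, MT-TI, MT-TM and MT-TW. The rule used no measured value, although the genes and lists were chosen with earlier results of these data known. All 6 were found in the count table, among 22 mitochondrial tRNA genes and 90127 features in all. The 38 small RNA libraries came from 2 wild-type acute myeloid leukaemia cell lines, KG1a, an immature line, and HL60, a promyelocytic line. In each line, RNA was taken from the cells and from extracellular vesicles collected from their medium, large (lEV) and small (sEV). Libraries were made of total RNA and of RNA recovered by rPAL, a chemistry in which periodate oxidises sialic acids, the resulting aldehydes are ligated to biotin and the labelled RNA is pulled down as sialoglycoRNA. The 12 groups held 4 libraries each for KG1a cell total and KG1a cell rPAL and 3 libraries each for the other 10. Cells for the cell groups grew in medium with 10% serum, whereas cells for the vesicle groups were kept without serum for 2 days, so that the medium and the source cannot be told apart in any vesicle against cell comparison. No label says whether replicates were separate cultures, and p-values then measure only the spread between these samples, which may be technical.

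Human mitochondrial DNA is transcribed from both strands as long precursors in which most rRNA and mRNA genes are flanked by tRNA genes. RNase P and ELAC2 cut the tRNAs out at their 5′ and 3′ ends, TRNT1 adds the CCA tail, and nuclear-encoded synthetases charge them. The genes nearest the heavy-strand promoter lie around the ribosomal RNAs MT-RNR1 and MT-RNR2 and the complex I subunits MT-ND1 and MT-ND2. Each carries an amino acid in mitochondrial translation, and the valine tRNA is also a structural RNA of the large subunit of the human mitochondrial ribosome.

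The 6 tRNA sequences are shown because they identify the RNAs that the counts stand for and because the tRNAs share little sequence. They are the GENCODE release 29 transcripts on GRCh38, all on the forward strand of the mitochondrial chromosome, with the anticodon in capitals and without the CCA tail, which is added after transcription.
MT-TF: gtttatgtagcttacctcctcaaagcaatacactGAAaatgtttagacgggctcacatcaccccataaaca
MT-TV: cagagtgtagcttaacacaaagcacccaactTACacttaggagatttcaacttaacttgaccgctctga
MT-TL1: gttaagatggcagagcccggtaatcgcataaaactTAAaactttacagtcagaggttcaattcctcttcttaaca
MT-TI: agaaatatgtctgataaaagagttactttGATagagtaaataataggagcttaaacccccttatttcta
MT-TM: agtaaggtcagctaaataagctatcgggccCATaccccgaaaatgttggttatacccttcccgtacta
MT-TW: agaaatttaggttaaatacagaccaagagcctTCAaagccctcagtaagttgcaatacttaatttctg
MT-TF, the phenylalanine tRNA, lies at chrM:577-647 and touches MT-RNR1. MT-TV, the valine tRNA, fills chrM:1602-1670 between MT-RNR1 and MT-RNR2 with no base to spare on either side. MT-TL1, a leucine tRNA, lies at chrM:3230-3304, directly after MT-RNR2 and 2 bases before MT-ND1. MT-TI, the isoleucine tRNA, lies at chrM:4263-4331, directly after MT-ND1, and its last 3 bases overlap the glutamine tRNA gene MT-TQ on the other strand. MT-TM, the methionine tRNA used for both initiation and elongation, lies at chrM:4402-4469, directly before MT-ND2. MT-TW, the tryptophan tRNA, lies at chrM:5512-5579, directly after MT-ND2.

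The genes are 68 to 75 bases long. Their GC content ran from 29% in MT-TI and 35.3% in MT-TW through 38.7% in MT-TL1, 40.8% in MT-TF and 42.0% in MT-TV to 45.6% in MT-TM. Identity between pairs of them ran from 45.8% to 58.4%, with a median of 52.0%. No stretch of 20 bases in MT-TF, MT-TV, MT-TI or MT-TW occurs in the GENCODE transcript of another gene. In MT-TL1, 1 of 56 such stretches also occurs in AC025627.4, and in MT-TM 4 of 49 occur in MTCYBP36. These genes held 259 and 63 counts over all libraries, against 1689 for MT-TL1 and 1885 for MT-TM. The search covered GENCODE transcripts only, not the 3726 features without Ensembl identifiers or the rest of the genome. Features without a gene symbol held 85.6% of all counts, and they may include reads of these tRNAs, which was not tested. Whether reads of MT-TI and MT-TQ were told apart by strand is not given in the sources used here.

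Depth ran from 5498168 to 14892937 counts in total RNA and from 2380745 to 15532758 in rPAL RNA. Levels are given as CPM, a gene's count scaled by the total count of its library. CD34, a marker of immature cells, had 143 counts over the 4 KG1a cell total libraries and 3 over the HL60 ones, and MPO, a granule enzyme of promyelocytes, had 1 and 107. Of the other promyelocyte genes, AZU1 had 10 and PRTN3 5 counts in HL60 cell total RNA and ELANE 0, and all 3 were at 0 in KG1a cell total RNA. CD3E, a T-cell gene, was at 0 in all cell groups and had 120 counts in KG1a lEV rPAL RNA. All markers are mRNAs, so that small RNA libraries hold little of them. KG1a cell rPAL replicates 2 and 3 stood apart from replicates 1 and 4 in the share of counts from entries typed as tRNA. This share was 38.7% and 39.6% against 72.9% and 77.0%. Entries typed as tRNA are those that the count table types so, apart from those typed as mitochondrial tRNA, and their genomic origin was not checked. In vesicle rPAL libraries rRNA entries took 15.05% to 63.9% of counts. In bulk samples, fewer cells or vesicles carrying an RNA and less RNA in each cannot be told apart.

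In total RNA of both lines MT-TV was the most abundant of the 6 and MT-TW the least. Compared per kilobase of gene length, KG1a cells held 1770 ± 238 CPM per kb of MT-TV (mean ± SD, n = 4), 293 ± 104 of MT-TF, 231 ± 89.5 of MT-TI, 123 ± 44.4 of MT-TM, 93.8 ± 36.5 of MT-TL1 and 21.9 ± 9.03 of MT-TW. The ranges of MT-TV and MT-TF did not overlap, nor did those of MT-TL1 and MT-TW, whereas MT-TF, MT-TI, MT-TM and MT-TL1 each overlapped the next in this order. In HL60 cells the range of MT-TV again lay above those of the other 5.

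The rPAL fraction of cells held far more MT-TV and MT-TI than total RNA did, in both lines. MT-TV rose 35.1-fold in KG1a cells and 46.2-fold in HL60 cells by mean CPM, and MT-TI 10.03-fold and 4.41-fold. MT-TF fell in KG1a cells, and MT-TL1, MT-TM and MT-TW fell in HL60 cells. Calls are at an adjusted p under 0.05 in edgeR's quasi-likelihood test with Benjamini-Hochberg adjustment over all features tested. In KG1a cells 2 of the 6 were higher, where 8.89% of 6592 tested features were, and 1 was lower, where 9.86% were. In HL60 cells 2 of the 6 were higher, where 20.6% of 6902 features were, and 3 were lower, where 18% were.

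**Figure D1:**
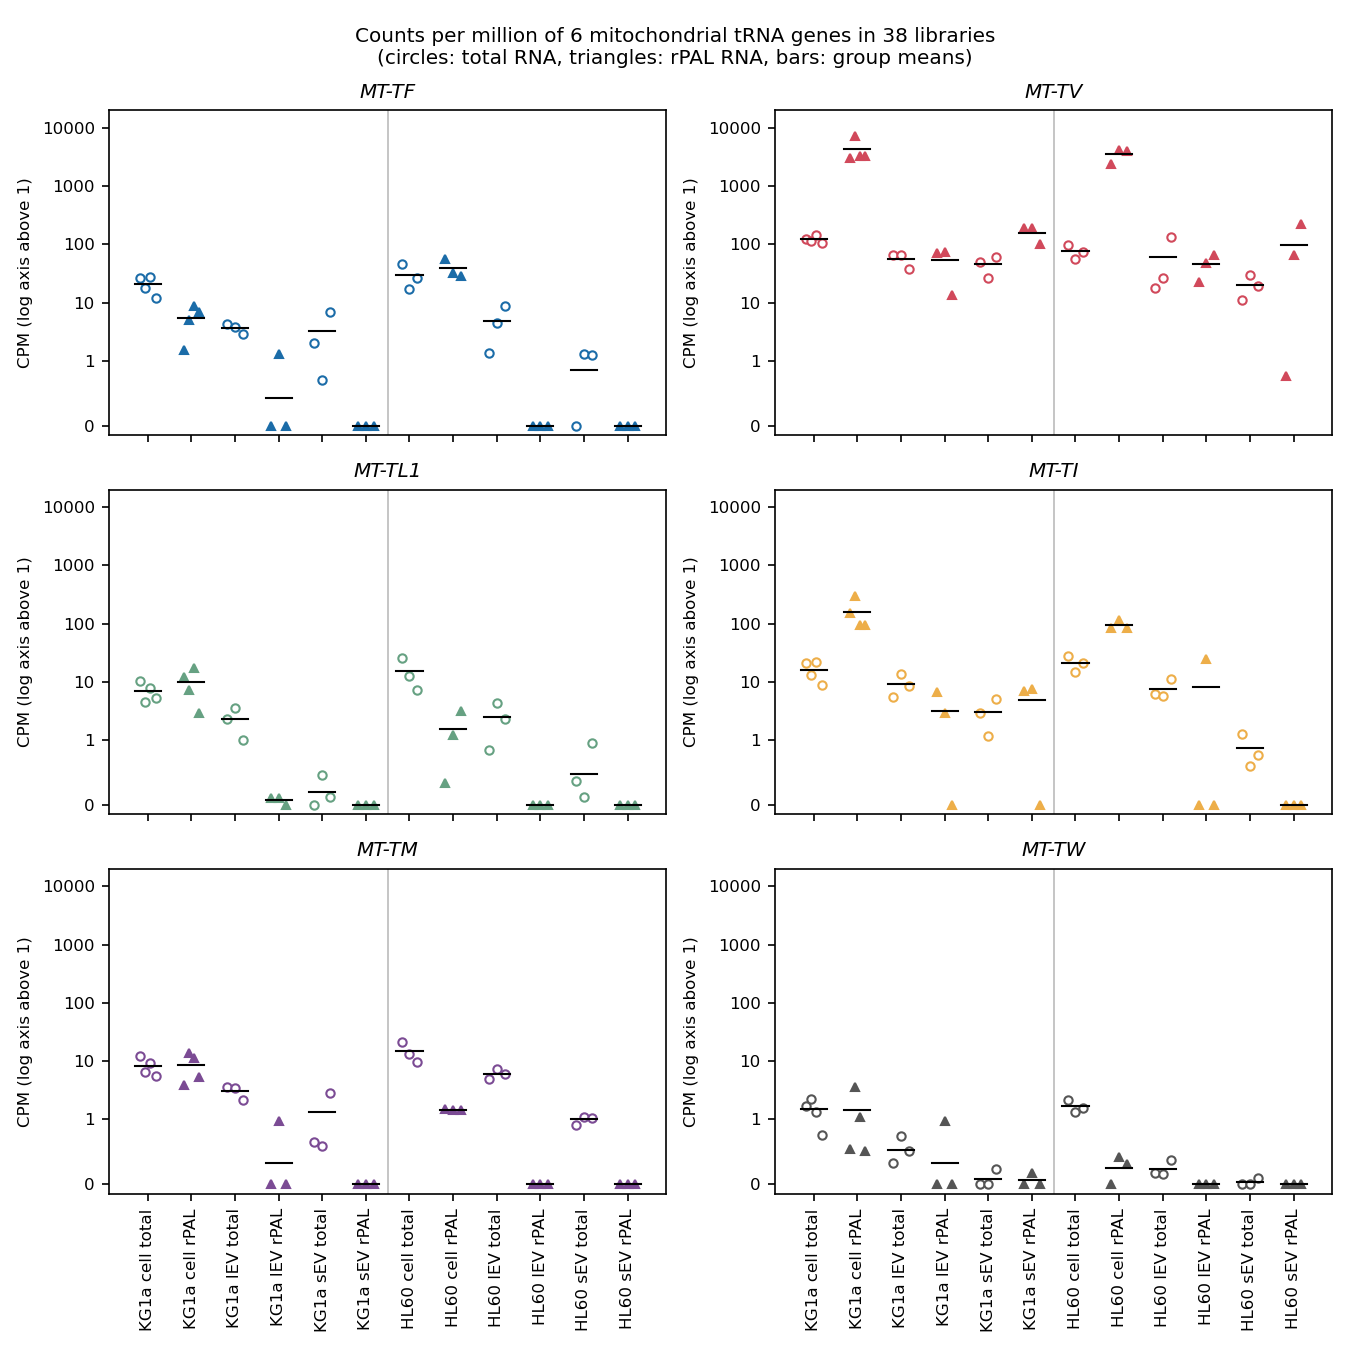
CPM of each tRNA gene (vertical axis, logarithmic above 1 CPM and linear below it) in each of the 38 libraries, by line, source and kind of RNA; circles are total RNA, triangles rPAL RNA, and bars group means. MT-TV in cell rPAL libraries lies between 2411 and 7368 CPM, above every other value of any of the 6, and most vesicle rPAL values of the genes other than MT-TV are at 0.

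MT-TV was measured at 125, 116, 143 and 104 CPM in the 4 KG1a cell total libraries and at 3072, 7368, 3345 and 3344 CPM in the rPAL ones. Every rPAL library was far above every total library, and replicate 2 was the highest of the rPAL group. The log2 fold change was 4.88 ± 0.51 (SE; adjusted p = 0.00028, edgeR). Each SE given with an edgeR value was worked back from the test, as the size of the log2 fold change over the square root of its F statistic. Without KG1a cell rPAL replicates 2 and 3 the log2 fold change was 4.76 ± 0.36 (adjusted p = 0.000299, edgeR). In HL60 cells MT-TV stood at 98.4, 56.5 and 72.8 CPM in total RNA and at 2411, 4092 and 4015 CPM in rPAL RNA, again without overlap. The log2 fold change there was 5.29 ± 0.32 (SE; adjusted p = 4.29e-06, edgeR).

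In none of the 4 vesicle sources did the difference for MT-TV between rPAL and total RNA pass the test. KG1a lEV had 65.1, 66.6 and 38.3 CPM in total RNA and 71.8, 74.6 and 13.6 CPM in rPAL RNA, which overlapped, with a log2 fold change of -0.05 ± 1.00 (adjusted p = 0.986, edgeR). KG1a sEV had 50.04, 25.97 and 59.5 CPM in total RNA and 187, 188 and 102 CPM in rPAL RNA. These ranges did not overlap, yet the log2 fold change of 1.65 ± 1.19 did not pass (adjusted p = 0.484, edgeR).

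HL60 lEV had 18.03, 26.04 and 134 CPM of MT-TV in total RNA and 22.2, 48.1 and 66.5 CPM in rPAL RNA, with a log2 fold change of -1.71 ± 0.90 (adjusted p = 0.199, edgeR). Without TMM scaling, which moved the median of all features by 1.44 here, it was -0.38. The highest total value, of replicate 3, lay above all rPAL values, and without that library the log2 fold change was -0.95. HL60 sEV had 10.9, 30.3 and 19.5 CPM in total RNA and 0.758, 66.8 and 228 CPM in rPAL RNA, which differed widely. The first of these rPAL values rested on 3 counts. The log2 fold change was 2.02 ± 1.49 (adjusted p = 0.447, edgeR), and without rPAL replicate 3 it was 0.016. MT-TV was detected in all 12 vesicle rPAL libraries, unlike the other 5 genes.

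MT-TI, which decodes isoleucine codons, was the other gene that rose in rPAL RNA of both lines. KG1a cells had 20.7, 12.8, 21.6 and 8.82 CPM in total RNA and 155, 297, 93.98 and 94.6 CPM in rPAL RNA. The groups did not overlap, and the log2 fold change was 3.04 ± 0.54 (adjusted p = 0.00251, edgeR). HL60 cells had 27.7, 14.6 and 21.2 CPM in total RNA against 82.6, 114 and 84.3 CPM in rPAL RNA, also apart, with a log2 fold change of 1.89 ± 0.35 (adjusted p = 0.00244, edgeR).

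Vesicle rPAL libraries held little MT-TI: 5 of 12 had any count, and these held 270 counts in all. KG1a lEV had 5.46, 13.5 and 8.36 CPM in total RNA and 6.58, 2.91 and 0 CPM in rPAL RNA, with a log2 fold change of -1.36 ± 1.35 (adjusted p = 0.601, edgeR). KG1a sEV had 2.89, 1.16 and 4.98 CPM in total RNA and 6.91, 7.66 and 0 CPM in rPAL RNA, with a log2 fold change of 0.52 ± 1.46 (adjusted p = 0.895, edgeR). In both KG1a vesicle groups rPAL replicate 3 was the library without MT-TI, and it was also the shallowest of its group. In HL60 lEV all 106 rPAL counts came from replicate 2, which stood at 24.5 CPM against 5.78 to 11.1 CPM in total RNA. The log2 fold change was -1.21 ± 2.09 (adjusted p = 0.721, edgeR). Without that library MT-TI had no rPAL count there and was called lower (adjusted p = 0.0173), as was its rPAL difference from that of HL60 cells (adjusted p = 0.000458). HL60 sEV had no MT-TI count in rPAL RNA and 20 counts in total RNA (1.27, 0.599 and 0.769 CPM), at least 2.85-fold lower when 3 counts over the group are set as its limit. That limit, here and below, covers only the counting error of the group at 0, and not that of the total RNA counts set against it. PCR reads without molecular identifiers are not independent molecules.

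MT-TF, the first gene of the transcript, fell in rPAL RNA of KG1a cells. There it was at 26.2, 17.7, 27.5 and 11.8 CPM in total RNA and at 1.52, 4.96, 8.61 and 6.95 CPM in rPAL RNA, so that the groups did not overlap. It fell by 2.08 ± 0.64 on the log2 scale (adjusted p = 0.0412, edgeR). This call was lost on leaving out any total library or rPAL replicate 2, without TMM scaling, without the low-count filter and with the block, with adjusted p up to 0.108 (edgeR). Without rPAL replicates 2 and 3 it was at adjusted p = 0.0583 (edgeR). In HL60 cells MT-TF was at 45.6, 17.1 and 26.6 CPM in total RNA and at 55.5, 31.8 and 28.9 CPM in rPAL RNA, which overlapped. The log2 fold change was 0.15 ± 0.45 (adjusted p = 0.834, edgeR), and it was below 0 by DESeq2 and without the low-count filter.

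In vesicle rPAL RNA MT-TF was found in 1 of 12 libraries, KG1a lEV replicate 2, with 12 counts. Vesicle total RNA held it in 11 of 12 libraries, at up to 8.73 CPM. HL60 lEV had 1.34, 4.39 and 8.73 CPM in total RNA and no rPAL count, at least 22.5-fold lower against 3 counts over the group (adjusted p = 0.0217, edgeR). The same limit gave at least 12.6-fold lower in KG1a sEV and at least 2.77-fold lower in HL60 sEV, neither of them tested because the gene did not pass the low-count filter there. In KG1a lEV it was at 4.35, 3.80 and 2.85 CPM in total RNA, and the log2 fold change of -2.99 ± 1.49 did not pass (adjusted p = 0.226, edgeR).

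MT-TL1, MT-TM and MT-TW each fell in rPAL RNA of HL60 cells, and none of the 3 passed in KG1a cells. MT-TL1 reads leucine codons, and in HL60 cells it was at 26.1, 12.4 and 7.13 CPM in total RNA and at 0.337, 1.24 and 3.14 CPM in rPAL RNA. It fell by 3.46 ± 0.81 on the log2 scale (adjusted p = 0.00835, edgeR), with no overlap. MT-TM was at 21.1, 13.4 and 9.72 CPM in total RNA and at 1.52, 1.45 and 1.42 CPM in rPAL RNA. It fell by 3.58 ± 0.50 (adjusted p = 0.000503, edgeR), again with no overlap. MT-TW was at 2.14, 1.34 and 1.54 CPM in total RNA and at 0, 0.414 and 0.314 CPM in rPAL RNA, a total of 72 against 6 counts. It fell by 2.90 ± 0.89 (adjusted p = 0.0285, edgeR), a call that was lost without any of the 3 total libraries, without the low-count filter and with the block, with adjusted p up to 0.113.

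In KG1a cells the same 3 genes overlapped between the kinds of RNA. MT-TL1 was at 10.5, 4.52, 7.92 and 5.21 CPM in total RNA and at 12.2, 7.25, 17.1 and 2.96 CPM in rPAL RNA, a log2 fold change of 0.17 ± 0.59 (adjusted p = 0.892, edgeR) that lay below 0 without the low-count filter. MT-TM was at 12.2, 6.49, 9.33 and 5.46 CPM against 3.80, 13.9, 11.3 and 5.21 CPM, a log2 fold change of -0.31 ± 0.54 (adjusted p = 0.776, edgeR) that lay above 0 without TMM scaling. MT-TW was at 1.67, 2.22, 1.32 and 0.756 CPM against 0.532, 3.58, 1.08 and 0.515 CPM, a log2 fold change of -0.49 ± 0.82 (adjusted p = 0.769, edgeR). In MT-TM and MT-TW rPAL replicate 2 was the highest library, as it was for MT-TV and MT-TI.

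In vesicle rPAL RNA MT-TL1 had 2 counts in 12 libraries, MT-TM 9 and MT-TW 10. Only 1 library, KG1a lEV replicate 2, held all 9 of the MT-TM counts. KG1a lEV had 2.30, 3.53 and 1.02 CPM of MT-TL1 in total RNA and 1, 1 and 0 counts in rPAL RNA. This was the 1 gene of 5 tested that was lower there, where 7.07% of 5857 features were, with a pooled ratio of 25.9 (95% counting interval 6.93 to 218) and adjusted p = 0.048 (edgeR). The call was lost without any single total library or rPAL replicate 1, without the low-count filter, and with the replicate number as a block, with adjusted p up to 0.235. Over all features, 1 was called without the filter and 232 with the block, in place of 599. DESeq2 called MT-TF and MT-TM lower as well, and edgeR did so without rPAL replicate 2, the 1 library that held their counts (both at adjusted p = 0.0255). In HL60 lEV MT-TM was at 4.86, 7.17 and 6.07 CPM in total RNA with no rPAL count, at least 28.2-fold lower (adjusted p = 0.0167, edgeR). MT-TF and MT-TM were 2 lower genes of 4 tested in HL60 lEV, where 18.9% of 3219 features were lower. Neither was called without the low-count filter or with the replicate number as a block, where 309 and 641 of all features were called in place of 1006. MT-TF was also lost without total replicate 1 and MT-TM without any total library, both with adjusted p up to 0.0877. Without total replicate 2 or 3 MT-TF did not pass the low-count filter and could not be tested.

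No gene of the 6 was called in rPAL RNA of sEV by edgeR, and none had an unadjusted p under 0.05 or was called by DESeq2. In KG1a sEV 2 of 6 were tested and 6.61% of 8128 features were called in either direction. In HL60 sEV MT-TV alone was tested and 18.8% of 3619 features were called. Beside these values stand the rRNA shares, which in HL60 lEV were 5.83% ± 0.969 (SD, n = 3) in total RNA and 54.8% ± 11.5 in rPAL RNA, and in KG1a sEV 34.8% ± 8.97 and 61.8% ± 2.88. Their part in the vesicle results was not tested.

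**Figure D2:**
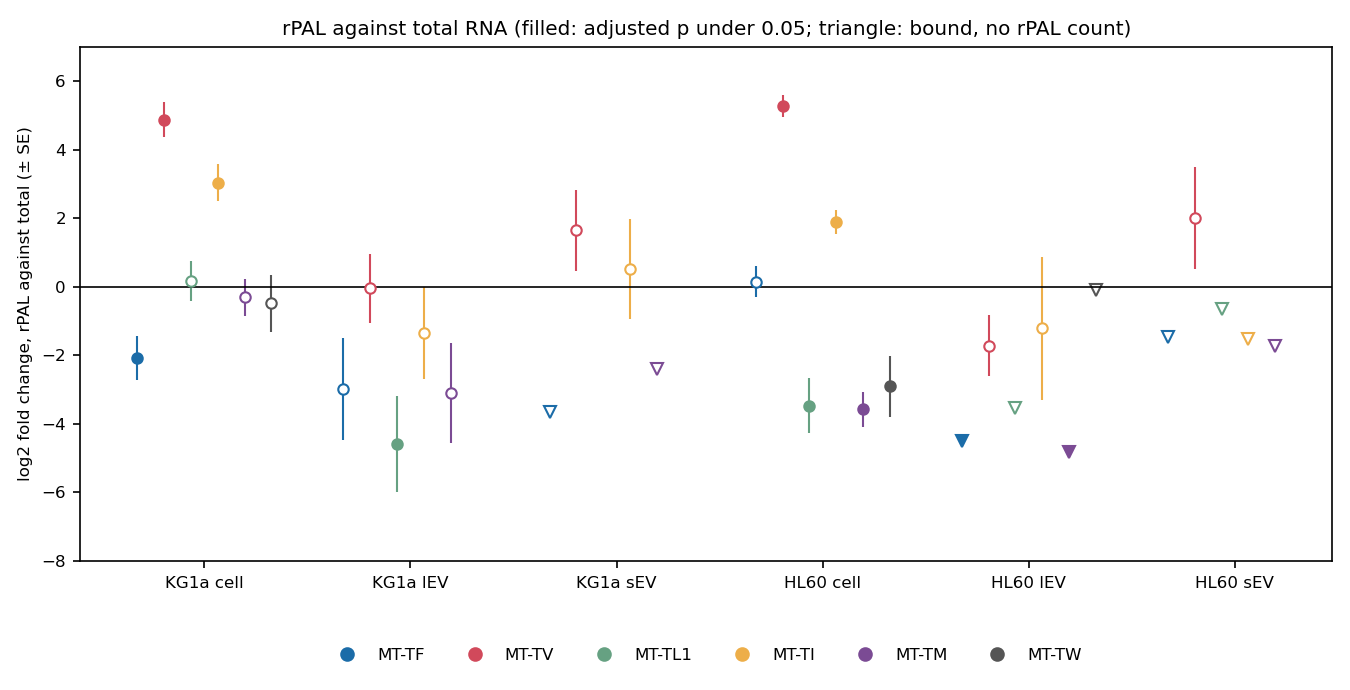
Log2 fold change of rPAL against total RNA (vertical axis, points with SE bars) for each gene in each source; filled symbols passed at adjusted p under 0.05, and triangles mark a bound from 3 counts where the rPAL group had none. MT-TV and MT-TI lie above 0 with filled points in both cell sources, at 4.88 and 3.04 in KG1a and 5.29 and 1.89 in HL60, and no filled symbol lies above 0 in vesicles.

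The rise of MT-TV changed the makeup of mitochondrial tRNA in the cell rPAL libraries, a measure within each library that its other RNAs do not scale. MT-TV took 19.99% ± 6.69 (SD, n = 4) of all mitochondrial tRNA counts in KG1a cell total RNA and 84.3% ± 0.279 in rPAL RNA. In HL60 cells it took 9.09% ± 3.64 (n = 3) and 90.5% ± 0.370. The rPAL shares ran from 84.1% to 84.7% in KG1a, including the 2 libraries that stood apart, and from 90.1% to 90.8% in HL60, and no cell total library exceeded 29.2%. Among the counts of the 6 genes alone, MT-TV took 70.2% ± 5.55 in KG1a cell total RNA and 95.9% ± 0.899 in rPAL RNA, against 48.6% ± 3.92 and 96.1% ± 1.37 in HL60. MT-TI took 2.38% ± 0.106 of mitochondrial tRNA counts in KG1a cell total RNA and 3.10% ± 0.897 in rPAL RNA, and 2.56% ± 1.16 and 2.504% ± 0.601 in HL60, so that its ranges overlapped in both lines. The 16 other mitochondrial tRNAs together stood at 498 ± 225 CPM in KG1a cell total RNA and 613 ± 297 in rPAL RNA, and at 743 ± 299 and 233 ± 108 in HL60.

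**Figure D3:**
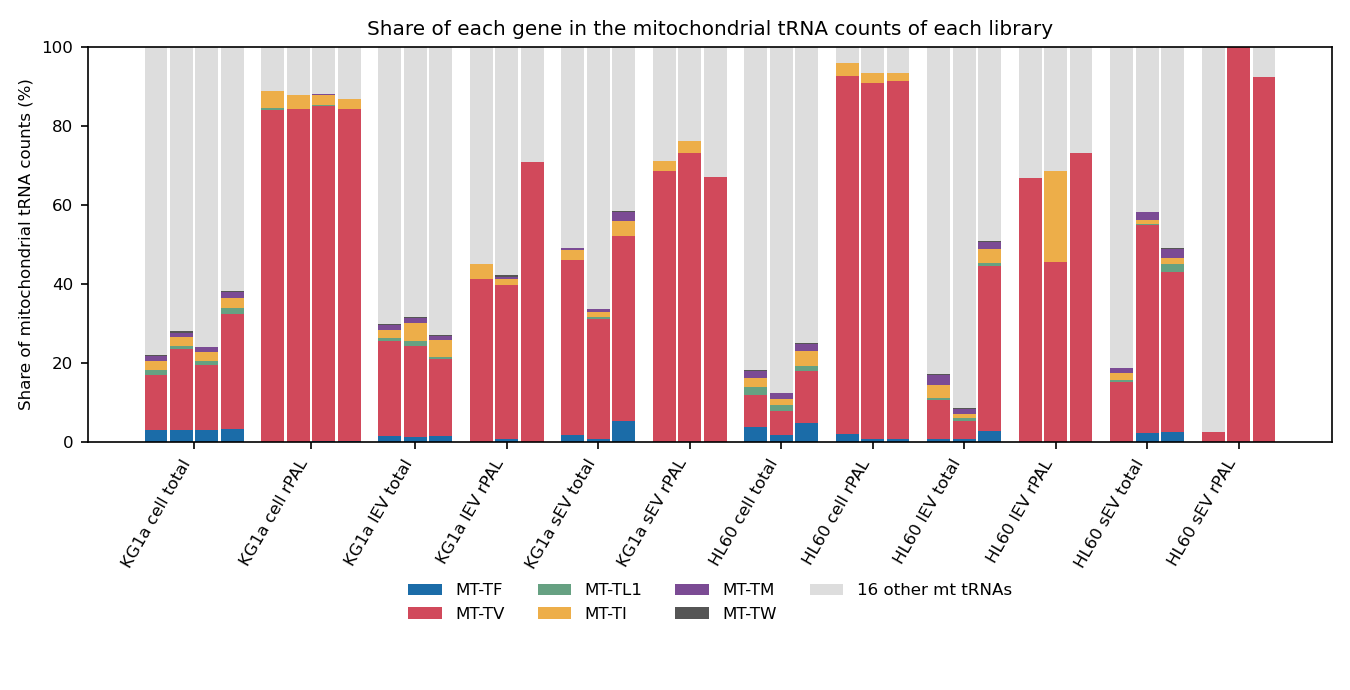
Share of each gene in the mitochondrial tRNA counts of each library (vertical axis, percent; 1 bar a library; grey is the other 16 genes together). MT-TV fills 84.1% to 90.8% of the bar in the cell rPAL libraries and 6.08% to 29.2% in the cell total libraries, and the vesicle rPAL bars vary from 2.63% to 100%.

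In vesicles the MT-TV share was higher in every rPAL library than in every total library in 3 of the 4 sources, on fewer counts. It was 22.2% ± 2.30 and 50.4% ± 17.8 in KG1a lEV, 40.4% ± 8.89 and 69.6% ± 3.17 in KG1a sEV, 18.8% ± 20.2 and 61.9% ± 14.5 in HL60 lEV (SD, n = 3 each). In HL60 sEV it was 36.2% ± 19.1 in total RNA, and 2.63%, 100% and 92.3% in the 3 rPAL libraries, which held 114, 226 and 587 mitochondrial tRNA counts. In HL60 lEV the 16 other mitochondrial tRNAs stood at 275 ± 208 CPM in total RNA and 22.8 ± 11.1 CPM in rPAL RNA.

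Set beside the other mitochondrial RNAs, the 6 genes spread from well above to well below the median feature. Their median log2 fold change in cells was -0.07 in KG1a and -1.37 in HL60, beside -0.04 and 0.04 over all features tested. Of the 8 distal heavy-strand tRNAs, which lie beyond MT-CO1, 7 were tested in each line. In KG1a 2 were higher (MT-TH at 3.38 ± 0.55 and MT-TG at 2.83 ± 0.62) and 1 lower, with a median of -1.20, and in HL60 0 were higher and 3 lower, with a median of -1.88. Of the 8 light-strand tRNAs, 1 was higher and 3 lower in KG1a and 1 was higher and 5 lower in HL60. The higher one was MT-TC, the cysteine tRNA, in both lines, at 5.32 ± 0.61 and 4.12 ± 0.41 on the log2 scale. The entries typed as tRNA had a median of 2.08 in KG1a cells, where 250 of 466 tested were higher and 5 lower. In HL60 cells their median was 2.16, and 314 of 463 were higher and 17 lower.

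The neighbours of MT-TV on the precursor did not rise with it. MT-RNR1, which precedes it, fell by 3.04 ± 0.96 in KG1a cells (adjusted p = 0.0457, edgeR) and by 2.30 ± 0.71 in HL60 cells (adjusted p = 0.0305, edgeR). MT-RNR2, which follows it, had a log2 fold change of -1.65 ± 0.85 in KG1a cells (adjusted p = 0.244, edgeR) and fell by 5.56 ± 0.67 in HL60 cells (adjusted p = 0.00021, edgeR). Next to MT-TI, MT-ND1 was at -0.38 ± 0.47 in KG1a cells (adjusted p = 0.663, edgeR) and fell by 1.30 ± 0.27 in HL60 cells (adjusted p = 0.00421, edgeR). The overlapping gene MT-TQ was at 1.26 ± 0.51 (adjusted p = 0.12, edgeR) and -0.27 ± 0.60 (adjusted p = 0.772, edgeR). Of 13 mitochondrial mRNAs, 2 were higher and 0 lower in KG1a cells, and 1 was higher and 4 lower in HL60 cells. Of 17 nuclear genes for mitochondrial transcription, tRNA processing and charging of these tRNAs, 4 were tested in KG1a cells and none differed by edgeR or at an unadjusted p under 0.05. In HL60 cells 7 were tested: POLRMT, the mitochondrial RNA polymerase, was higher by 3.17 ± 0.56 (adjusted p = 0.00209, edgeR), and IARS2, which charges MT-TI, was lower (adjusted p = 0.00369, edgeR). Both were named after their values were seen. In KG1a cells POLRMT was at -0.62 ± 1.10 (adjusted p = 0.784, edgeR). In HL60 vesicles it was at 2.82 ± 1.54 in lEV (adjusted p = 0.214, edgeR) and lower in sEV, at -4.73 ± 1.42 (adjusted p = 0.0476, edgeR).

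**Figure D4:**
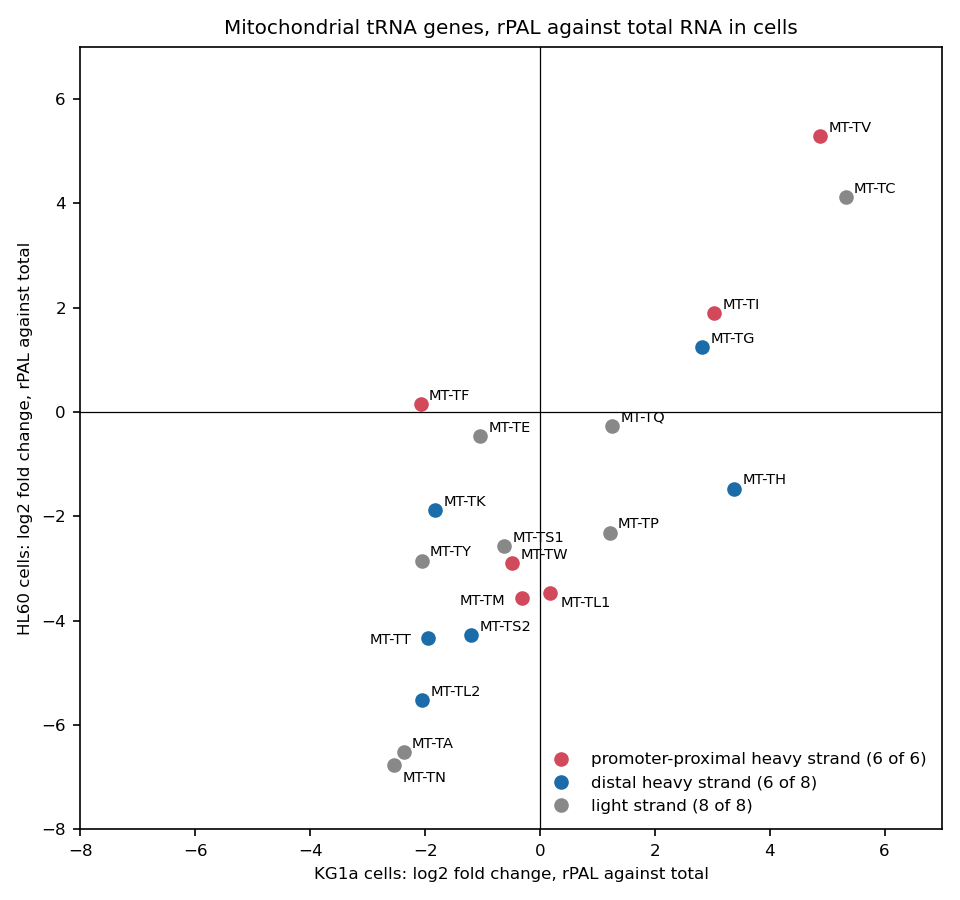
Log2 fold change of rPAL against total RNA for the mitochondrial tRNA genes tested in both lines, in KG1a cells (horizontal axis) and HL60 cells (vertical axis), coloured by their place on the chromosome. MT-TV (4.88 and 5.29) and MT-TC (5.32 and 4.12) lie at the upper right, MT-TI (3.04 and 1.89) lies between them and 0, and MT-TL1, MT-TM and MT-TW lie near 0 in KG1a and below it in HL60.

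Whether the rPAL difference itself differed between sources was tested as an interaction. For HL60 lEV against HL60 cells, 3 of the 6 genes had a lower rPAL difference in lEV, where 11.4% of 8458 features did. Of all mitochondrial tRNAs 9 of 21 were lower and 0 higher, with a median of -5.51. Of the entries typed as tRNA 219 of 479 were lower and 0 higher, with a median of -3.10, beside -0.79 over all features. MT-TV differed by -6.62 ± 0.91 on the log2 scale (adjusted p = 0.000578, edgeR). MT-TF and MT-TM, which had no rPAL count in HL60 lEV, passed too (adjusted p = 0.00449 and 0.039, edgeR). MT-TM was lost by DESeq2, without TMM scaling, without the low-count filter, with the block and without any of 7 single libraries (the 3 cell total, the 3 lEV total and lEV rPAL replicate 1), with adjusted p up to 0.269. For HL60 sEV against HL60 cells, 1 of 5 tested genes, MT-TI, passed (adjusted p = 0.00966, edgeR), where 12.8% of 8107 features were lower. Of all mitochondrial tRNAs 2 of 20 were lower and 0 higher, with a median of -2.39. Of the entries typed as tRNA 268 of 479 were lower and 0 higher, with a median of -3.86, beside -1.53 over all features. Of all features called, 3.54% were higher there and 10.5% in the lEV difference, against 37.2% and 40.9% by DESeq2. MT-TI was lost there without any cell total library or sEV total replicate 1, with adjusted p up to 0.0623. MT-TV was at -3.58 ± 1.44 (adjusted p = 0.11, edgeR), and passed without the low-count filter (-3.69, adjusted p = 0.0201) and without HL60 sEV rPAL replicate 3 (-5.28, adjusted p = 0.0245). The matching interactions in KG1a were not tested.

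Between the lines, MT-TM was the 1 gene whose rPAL difference in cells was lower in HL60 than in KG1a, by -3.40 ± 0.84 (adjusted p = 0.0444, edgeR), where 1.18% of 11632 features were. It was lost without TMM scaling, without the low-count filter, with the block and in 10 of 14 fits that left out a single library (all but those without KG1a cell total replicate 1 or KG1a cell rPAL replicates 1, 3 and 4), with adjusted p up to 0.259. MT-TL1 was at -3.77 ± 1.03 (adjusted p = 0.0608, edgeR) and was called by DESeq2. For MT-TV the lines differed by 0.27 ± 0.60 (adjusted p = 0.904, edgeR), for MT-TI by -1.30 ± 0.70 (adjusted p = 0.368, edgeR) and for MT-TF by 2.12 ± 0.86 (adjusted p = 0.205, edgeR). Of all mitochondrial tRNAs 5 of 22 were lower in HL60 and 0 higher, with a median of -1.94, beside -0.37 over all features.

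In total RNA, 5 of the 6 genes were lower in KG1a lEV than in cells, 2 in HL60 lEV, and all 6 in sEV of both lines. In KG1a lEV 5 of the 6 were lower, where 28.5% of 7780 features were, by 1.19 ± 0.37 for MT-TV to 2.59 ± 0.43 for MT-TF on the log2 scale. MT-TI was at -0.91 ± 0.44 (adjusted p = 0.0941, edgeR) and passed without cell replicate 4 or lEV replicate 2. MT-TV was at adjusted p = 0.0129 and was lost without lEV replicate 3, at 0.0712. In KG1a sEV all 6 were lower, where 22.1% of 8725 features were. MT-TL1 fell most, by 6.16 ± 0.82 (adjusted p = 0.000291, edgeR), from 7.04 ± 2.74 CPM in cells to 0, 0.4658 and 0.116 CPM, and MT-TV least, by 2.58 ± 0.39 (adjusted p = 0.00053, edgeR), from 122 ± 16.4 to 45.2 ± 17.3 CPM. MT-TW had 2 counts in KG1a sEV against 73 in the cells. All of these calls in KG1a vesicles were also made without TMM scaling. In sEV that setting moved the median of all features by 1.12, and the 6 genes then fell by 1.43 (MT-TV) to 5.13 (MT-TL1). Of all mitochondrial tRNAs tested, these 6 included, 18 of 19 were lower in KG1a sEV than in cells and 0 higher. Also lower there were 13 of 13 mitochondrial mRNAs and 2 of 2 mitochondrial rRNAs. In KG1a lEV 13 of 21 mitochondrial tRNAs were lower and 2 higher, and 2 of 13 mitochondrial mRNAs were lower and 0 higher.

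In HL60 fewer of the genes passed in lEV than in sEV. In lEV 2 of the 6 were lower than in cells, where 15.2% of 6527 features were: MT-TF by 1.91 ± 0.60 (adjusted p = 0.0321, edgeR) and MT-TW by 2.08 ± 0.50 (adjusted p = 0.00906, edgeR). MT-TF was lost without any single cell library, with adjusted p up to 0.141, and MT-TW without cell replicate 1, at 0.0602. MT-TL1 was at -1.70 ± 0.67 (adjusted p = 0.0763, edgeR) and was called by DESeq2, without TMM scaling, without the filter and with the block. MT-TV was at 0.18 ± 0.59 (adjusted p = 0.844, edgeR), with replicate 3 at 134 CPM and the others at 18.03 and 26.04, and its sign turned without TMM scaling, without the filter, with the block and without lEV replicate 3. In HL60 sEV all 6 were lower than in cells, where 12.8% of 7555 features were, from 2.11 ± 0.49 for MT-TV (adjusted p = 0.0137, edgeR) to 5.26 ± 0.96 for MT-TF (adjusted p = 0.00575, edgeR). MT-TV was lost there without any single cell library, with adjusted p up to 0.0698, and MT-TF without cell replicate 1, at 0.0508. Without TMM scaling all 6 were still called lower in HL60 sEV. Of all mitochondrial tRNAs tested, these 6 included, 19 of 21 were lower in HL60 sEV than in cells and 0 higher. Also lower there were 11 of 13 mitochondrial mRNAs and 2 of 2 mitochondrial rRNAs. In HL60 lEV 5 of 21 mitochondrial tRNAs were lower and 0 higher, and of 13 mitochondrial mRNAs 0 were lower and 1 higher.

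**Figure D5:**
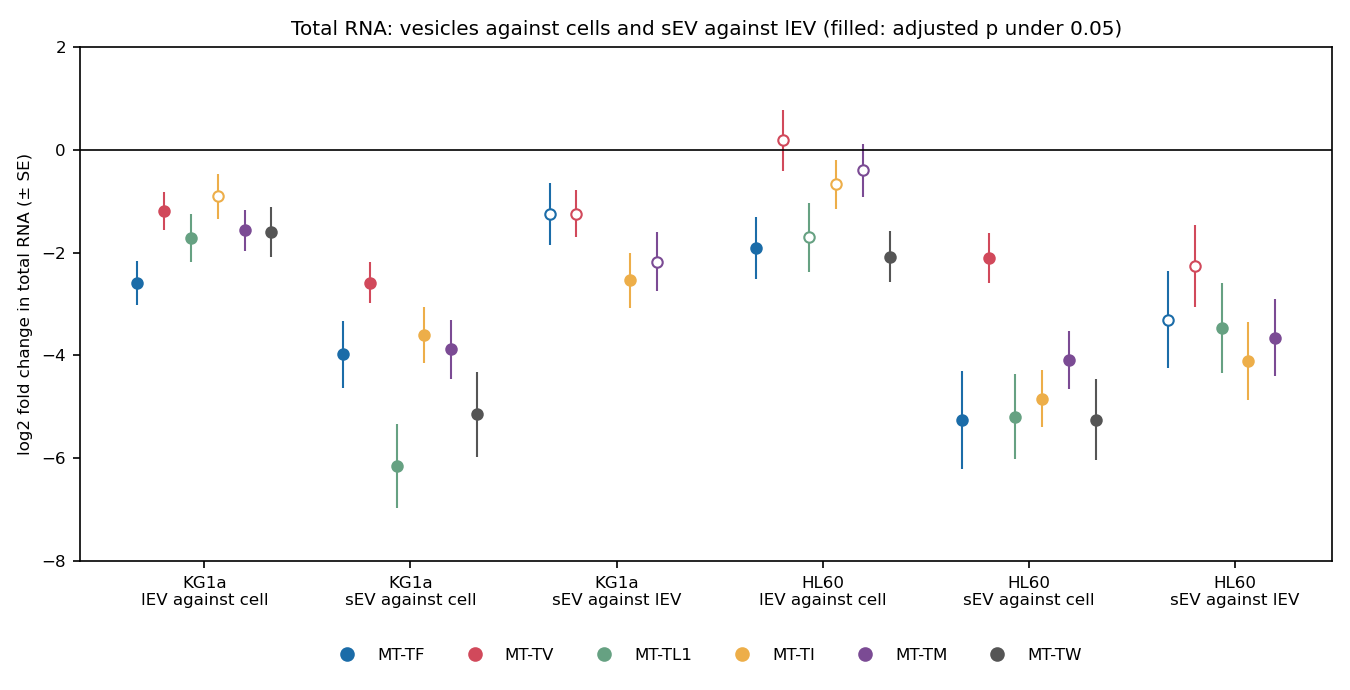
Log2 fold change in total RNA (vertical axis, points with SE bars) for lEV against cell, sEV against cell and sEV against lEV in each line; filled points passed at adjusted p under 0.05. All 6 genes are filled and below 0 for sEV against cell in both lines, from -2.58 to -6.16 in KG1a and from -2.11 to -5.26 in HL60.

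Small vesicles held less than large ones for a few of the genes. In KG1a MT-TI was the 1 lower gene of 4 tested, by 2.54 ± 0.54 (adjusted p = 0.0394, edgeR), where 1.9% of 7682 features were lower, and it was lost without any single lEV library, with adjusted p up to 0.254, and without TMM scaling. With the replicate number as a block, which the pairing check allowed here, 2 of 4 were lower, MT-TM at adjusted p = 0.0339 beside MT-TI, and 1107 features were called in place of 408. In HL60 3 of 5 tested genes were lower, where 1.75% of 5813 features were: MT-TL1 by 3.47 ± 0.87, MT-TI by 4.12 ± 0.76 and MT-TM by 3.66 ± 0.75 (adjusted p = 0.0325, 0.0148 and 0.0156, edgeR). Each of these calls was lost without any single lEV library, with adjusted p up to 0.185, and MT-TL1 also without sEV replicate 1 or 2 and without TMM scaling, and MT-TM without sEV replicate 2. DESeq2 called all 5, and 958 features in place of 419. With the replicate number as a block MT-TF was called as well (-3.58, adjusted p = 0.0118, edgeR), with 387 features called. Among all mitochondrial tRNAs tested, these genes included, 10 of 18 were lower in KG1a sEV than lEV and 13 of 18 in HL60, with 0 higher. Of 13 mitochondrial mRNAs, 13 were lower in KG1a and 11 in HL60, with 0 higher. The 2 mitochondrial rRNAs did not pass.

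Few of the genes passed between the lines in total RNA. In cells MT-TL1 was the 1 gene higher in HL60, by 1.17 ± 0.42 (adjusted p = 0.0344, edgeR), where 18.4% of 8655 features were. Its values overlapped, at 4.52 to 10.5 CPM in KG1a and 7.13 to 26.1 CPM in HL60, and the call was lost without any of 5 single libraries, with adjusted p up to 0.24: KG1a replicates 2, 3 and 4 and HL60 replicates 1 and 2. Without a single library MT-TV was also called (lower in HL60, -0.68, without KG1a replicate 4), and MT-TM (higher, without KG1a replicate 1 or HL60 replicate 3). In lEV the 5 tested genes had log2 fold changes of 0.71 to 2.06, with a median of 1.23. Without TMM scaling, which moved the median of all features by -0.94, they ran from -0.24 (MT-TI) to 0.98 (MT-TM). Of all features called, 11% were then higher in HL60, instead of 43.6%. With TMM scaling MT-TM was the 1 gene that passed as higher in HL60, by 2.06 ± 0.51 (adjusted p = 0.017, edgeR), where 7.04% of 6221 features were. This call was lost without TMM scaling (0.98 ± 0.54, adjusted p = 0.183, edgeR) and without KG1a lEV replicate 2 or 3. MT-TF passed without HL60 lEV replicate 1 (1.70, adjusted p = 0.0314). In sEV 0 of 3 tested genes differed by edgeR, 0 had an unadjusted p under 0.05 and DESeq2 called 0, where 1.38% of 8581 features were called in either direction.

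Across the 38 libraries the log2(CPM + 1) patterns of the genes were compared as a description, over libraries that share depth and composition. MT-TL1 and MT-TM were closest to each other (Pearson r = 0.914), followed by MT-TM and MT-TW (0.833) and MT-TL1 and MT-TW (0.813), and MT-TV was closest to MT-TI (0.808), with 0.317 for MT-TM. MT-TI was at 0.598 to 0.681 with the other 4, and MT-TF was closest to MT-TM (0.773). Among the 610 features with a mean of at least 10 CPM, those most like each gene were AC051619.7 (0.841) and AC051619.8 (0.8291) for MT-TF, the miRNA gene MIR7977 (0.855) and AC027281.2 (0.834) for MT-TV, AC051619.7 (0.859) and MT-TT (0.832) for MT-TL1, MT-TH (0.841) and AC027281.2 (0.832) for MT-TI, MT-TT (0.889) and MT-TN (0.864) for MT-TM, and AC051619.7 (0.818) and MT-TN (0.794) for MT-TW. No feature kept a fixed ratio of counts to MT-TV or MT-TI over the libraries, taken as an SD of the log2 ratio under 0.2.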

How the data were processed

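Small RNA libraries made with an MGIEasy kit, per the labels' protocols, were deposited as 1 table of whole-number counts per feature and library, which the authors made with Bowtie2 on GRCh38 (hg38), per the submitters' processing notes; the counting program, its strand setting and its handling of reads with several matches are not given in the sources used here. The table has 38 columns, all matched to samples, and 90127 features, of which 86401 carry Ensembl identifiers. Positions and sequences came from GENCODE release 29. Levels are CPM over a library's total. The main test was edgeR 4.0.16 (quasi-likelihood, robust, TMM scaling, filterByExpr, totals over all features) in R 4.3.3, fitted per comparison on the whole table with Benjamini-Hochberg adjustment. It was tried on simulated counts modelled on the KG1a and HL60 cell rPAL comparisons only. Those runs do not cover the vesicle comparisons. Alternatives were DESeq2 1.42.0, no TMM, no low-count filter, the replicate number as a block and leaving out each library. Leaving out KG1a cell rPAL replicates 2 and 3 together was chosen after seeing the data. Folds against a group at 0 use 3 counts over that group. The SE of edgeR values, also in the figures, is the size of the log2 fold change over the square root of the F statistic, not a separately fitted SE.

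Totals of 2380745 to 15532758 counts per library set the precision, and a gene under about 1 CPM rests on a few counts. The 6 genes were named in every comparison, and the most alike features by Pearson r over 38 libraries; the genes and lists were chosen with earlier results of these data known. Same-numbered libraries deviated together (correlations 0.42, 0.136 and 0.286) in KG1a total RNA of sEV against lEV, the 1 comparison in which all pairs were over 0.1, so the blocked value is given there. Each library was also closest to its own number in total RNA of HL60 sEV against lEV (0.123, 0.0938 and 0.135) and of sEV between lines (0.0832, 0.304 and 0.344). No label says what the numbers share. Comparisons of rPAL with total RNA, of vesicles with cells and of lines share libraries and are not independent.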

Additional observations from a re-analysis of the deposited data

Results flagged for a closer look

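MT-TV in KG1a cell rPAL replicate 2 stood at 7368 CPM, far from the other libraries of its group at 3072, 3344 and 3345 CPM. Of 12 gene and group combinations with 4 libraries, this was the 1 such case. Chance gives about 1 in 20 for each combination, a rate that does not hold for the 12 together. The same library had 38.7% of its counts in entries typed as tRNA and an MT-TV share of 84.2% of mitochondrial tRNA counts. The 16 other mitochondrial tRNAs together were also highest in it, at 1053 CPM, against 407, 471 and 520 CPM in replicates 1, 3 and 4.

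The rPAL difference was tested between sources for 17 gene and contrast combinations, and 5 passed. Between HL60 lEV and HL60 cells it differed by -9.001 on the log2 scale for MT-TF, -6.62 for MT-TV and -5.78 for MT-TM. The values of MT-TF and MT-TM are fitted against a group without counts and depend on the prior count. Between HL60 sEV and HL60 cells it differed by -7.33 for MT-TI, again with no rPAL count in sEV. Between HL60 and KG1a cells it differed by -3.40 for MT-TM.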

How the results depend on the processing

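The rise of MT-TV and MT-TI in cell rPAL RNA passed under every alternative run in both lines, with MT-TV between 4.63 and 5.03 (KG1a) and 4.89 and 5.17 (HL60, where all libraries gave 5.29) when single libraries were left out. The number of the 6 genes called moved by over 1.5 times in these cases, and by 1 gene in others. By DESeq2 it was 3 instead of 1 for KG1a lEV rPAL, 2 instead of 1 for KG1a sEV against lEV, 5 instead of 3 for HL60 sEV against lEV and 2 instead of 1 for the line difference in cell enrichment. Without TMM scaling it was 0 instead of 1 for KG1a sEV against lEV, for lEV between lines and for the line difference in enrichment. Without the low-count filter it was 0 for KG1a lEV rPAL, HL60 lEV rPAL and the line difference, 3 for KG1a sEV against lEV, and 2 instead of 1 for the HL60 sEV difference in enrichment. With the replicate number as a block it was 0 for KG1a lEV rPAL, HL60 lEV rPAL and the line difference, and 2 for KG1a sEV against lEV, and the block left other counts within 1.5 times. Calls over all features moved too. Without the filter they went from 599 to 1 in KG1a lEV rPAL and from 1006 to 309 in HL60 lEV rPAL. They went from 408 to 1130 in KG1a sEV against lEV and from 1073 to 541 in the HL60 sEV enrichment difference. By DESeq2 they went from 599 to 1269, 408 to 771, 419 to 958 and 211 to 705, in the order given above. Without TMM scaling they went from 408 to 1447, 1004 to 1554 and 211 to 122, also in that order. With the block the line difference went from 211 to 57.

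Signs turned for differences that did not pass. MT-TL1 in KG1a cells was -0.11 without the filter. MT-TM there was 0.031 without TMM scaling. MT-TF in HL60 cells was -0.16 by DESeq2 and -0.18 without the filter. MT-TI in HL60 lEV was 0.090 and, in lEV between lines, -0.24 without TMM scaling. MT-TV in HL60 lEV against cells was -0.35 without TMM scaling, -0.0559 without the filter and -0.0651 with the replicate block. In the enrichment differences DESeq2 gave 0.53 for MT-TW (lEV), 1.54 for MT-TL1 and 0.46 for MT-TM (sEV). The cause was not tested.

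Leaving out single libraries gave counts of 2 to 3 and 4 to 5 for KG1a and HL60 cell rPAL, 0 to 3 and 0 to 4 for lEV rPAL, 4 to 6 and 0 to 3 for lEV against cells, 5 to 6 and 4 to 6 for sEV against cells, 0 to 2 and 0 to 4 for sEV against lEV, 0 to 2 between lines in cells and in lEV, and 2 to 4, 0 to 2 and 0 to 2 for the 3 enrichment differences. Signs turned in MT-TL1 in KG1a cells (-0.10 to 0.45), MT-TV in KG1a lEV rPAL (-0.56 to 0.48), MT-TF in HL60 cells (-0.70 to 0.25) and MT-TV in HL60 lEV against cells (-0.58 to 0.53), in lEV between lines (-0.011 to 1.155) and in sEV between lines (-0.80 to 0.030).

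Over all features, omitting TMM moved the median log2 fold change by -0.94 to 1.44, by over 0.1 in 14 of 18 comparisons, and DESeq2 moved it by 1.16 and 1.67 in the HL60 lEV and sEV enrichment differences. Without TMM, 81.0% instead of 51.1% of calls were higher in KG1a sEV against cells, 10.9% instead of 44.3% in HL60 lEV against cells and 58.1% instead of 39.4% in HL60 lEV rPAL. Calls in KG1a cell rPAL rose from 1236 to 3777 without replicates 2 and 3. For vesicle rPAL the block gave 232 instead of 599 (KG1a lEV), 183 instead of 537 (KG1a sEV), 641 instead of 1006 (HL60 lEV) and 322 instead of 681 (HL60 sEV), but nothing else shows that the numbers pair these libraries. Depth limits the vesicle rPAL values: outside MT-TV they rest on 2 to 270 counts a gene over 12 libraries.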
